A study of Chlorella sorokiniana and Chromochloris zofingiensis with 12 samples.

Results

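The small RNA response of the green microalga Chlorella zofingiensis, strain ATCC30412, to strong light with glucose was followed in 6 of the 12 libraries of the series. The 3 stress libraries came from cultures whose light was raised in mid log phase to 100 µmol photons, with 2% glucose added. The 3 normal libraries came from cultures in Bold's Basal Medium under continuous light of about 10 µmol photons. The preculture of both groups was kept at 27 °C and shaken at 30 rpm. Light and glucose changed together, so their effects cannot be told apart, and the time under stress is not given in the labels. The other 6 libraries of the series hold the same design in Chlorella sorokiniana NIES-2168. The labels do not say whether replicates were separate cultures, so the p-values measure the spread between these samples, which may be technical.

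Small RNAs of algae include microRNAs, which are cut by Dicer-like enzymes from hairpin precursors and guide Argonaute proteins to matching transcripts. Many other short reads in such libraries are pieces of longer structural RNAs: transfer RNAs, which carry amino acids to the ribosome, ribosomal RNAs, small nucleolar RNAs (snoRNAs), which guide chemical modification of ribosomal RNA, and spliceosomal U RNAs. Cleavage of tRNAs into fragments is known in many eukaryotes under stress. A library made from total RNA by size cannot by itself tell a processed small RNA from a breakdown product, and in bulk samples fewer cells and less RNA per cell cannot be told apart.

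The data came in 2 forms. A tag table lists the 100 commonest small RNA sequences (tags) of each library with their read counts, 165 different tags of 16 to 26 bases in all. Annotation sheets give reads matched to 792 Arabidopsis thaliana entries, namely 497 tRNA, 142 snoRNA and U RNA, 92 miRNA precursor, 34 rRNA and 27 mature miRNA entries. Positions below are those in the entry names, on the Arabidopsis build TAIR9 that the submitters' processing notes name. All 165 tags end in A, as do the commonest reads of 760 of the 792 entries. Listed tags held 500007, 81672 and 82565 reads in the stress libraries and 259413, 385844 and 431955 in the normal libraries, and these sums are not sequencing depths. A tag at 0 is one outside a library's 100 commonest. Annotated counts came to 60856, 280404 and 24978 under stress and to 14601, 106200 and 51706 in normal culture, and a read that maps to several entries counts at each. Tags were not matched to an algal or a bacterial genome, so the RNA and the organism from which a tag came were not tested, and tags are named below by family and length. A family holds tags that share 12 bases once the last base is removed, and the 50 families are numbered by their mean share of listed reads.

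Which tags were abundant differed between the groups. Any 2 stress libraries shared 87 to 92 of their 100 tags, and any 2 normal libraries shared 84 to 92. A stress library shared 62 to 66 tags with a normal one, over 9 such pairs. Of the 165 tags, 56 were listed in all 6 libraries, 45 in stress libraries alone and 49 in normal libraries alone. Tags listed in stress libraries alone took 9.95%, 11.1% and 13.0% of the listed reads there, and tags listed in normal libraries alone took 10.6%, 11.3% and 11.9% there. A like share of the listed reads in each group thus belonged to tags that were not among the commonest 100 in any library of the other.

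Tested one by one, 65 of 115 tags, or 56.5%, were called at an adjusted p below 0.05, 34 of them higher and 31 lower under stress (edgeR's quasi-likelihood test with Benjamini-Hochberg adjustment, BH). With the replicate number as a block 21 passed, 9 higher and 12 lower. With library totals alone 42 were higher and 28 lower. The scaling factors of the tag fit were 0.980 to 1.25 in stress and 0.851 to 0.899 in normal libraries, so tag folds lie below the change in shares. Those of the family fit were 0.984 to 1.10 and 0.8255 to 1.08, so tag and family folds are not on 1 scale. The shares of the groups did not overlap for 84 of the 115, or 73.0%. Listed in both groups were 10 of the higher and 9 of the lower tags, while a fit limited to the 56 tags listed in all 6 libraries gave 9 higher and 18 lower. The other 24 higher tags were listed in stress libraries alone and the other 22 lower tags in normal libraries alone, where a fold can only be bounded against the smallest listed share. For 7 of those 22 tags the bound was 1 or less, so that no fold is shown. Summed by family, 22 of 31 tested families passed, or 71.0%, with 15 higher and 7 lower (edgeR, BH). Of the 22, 12 higher families were listed in stress libraries alone and 3 lower families in normal libraries alone. A family sum counts unlisted tags as 0. With every unlisted tag at the smallest count listed in its library 15 families passed, 6 higher and 9 lower, and over tags listed in all 6 libraries 8 of 13, 3 higher and 5 lower (edgeR, BH). Both settings were chosen after seeing the data. The smallest listed share was 0.199% to 0.252% in stress libraries and 0.146% to 0.147% in normal ones. Unlisted tags were thus filled in higher under stress. The scaling of the first setting shifted with this fill and moved families down relative to their shares.

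**Figure D1:**
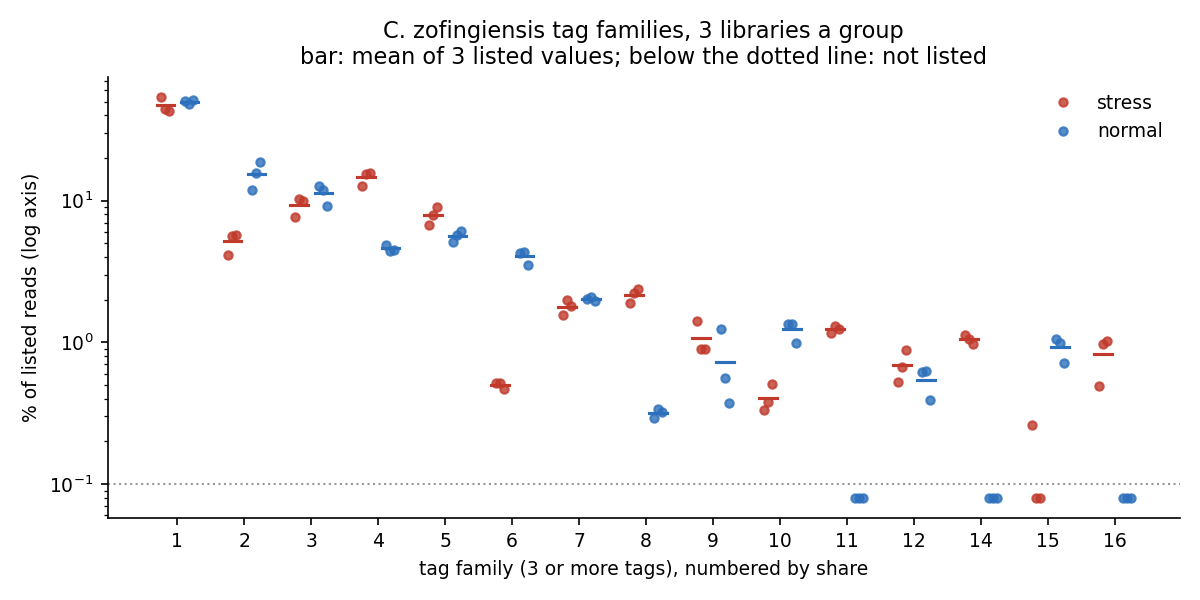
Share of listed reads (percent, log axis) of the tag families with at least 3 tags, each library a point, stress left of normal, the bar being the mean of 3 listed values; points below the dotted line were not listed. Families 11, 14 and 16 were listed in no normal library, family 6 stood at 0.468% to 0.516% under stress and 3.50% to 4.32% in normal culture, and family 1 overlapped between the groups.

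Family 4 and family 8 were the larger families that rose under stress. Family 4, of 11 tags, took 12.6%, 15.4% and 15.8% of listed reads in the stress libraries, against 4.90%, 4.42% and 4.48% in the normal libraries. Every stress library lay above every normal one, and the summed family rose by 1.61 ± 0.19 (SE) on the log2 scale (edgeR, BH-adjusted p = 0.000145). Family 8, of 3 tags, took 1.89%, 2.23% and 2.38% under stress and 0.295%, 0.339% and 0.321% in normal culture. Its sum was at 2.70 ± 0.21 (edgeR, BH-adjusted p = 1.86e-05), with 2 of its tags listed in no normal library, and with those at the smallest listed share the normal mean would be 0.611%. Its 16-base tag alone, listed in all 6 libraries, averaged 0.962% under stress and 0.318% in normal libraries. It rose by 1.23 ± 0.12 in the tag fit (edgeR, BH-adjusted p = 0.000221). A smaller family of 2 tags, family 17, averaged 0.527% ± 0.136 under stress and 0.242% ± 0.0584 in normal libraries (SD, n = 3 each) at 1.07 ± 0.25 (edgeR, BH-adjusted p = 0.00515, and 0.0562 without normal replicate 2). Its 19-base tag was listed in stress replicate 1 alone, with 1026 reads. Its 17-base tag, listed in all 6 libraries, averaged 0.459% under stress and 0.242% in normal libraries, without overlap. In the tag fit it was at 0.57 ± 0.24 and did not pass (edgeR, BH-adjusted p = 0.0920).

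Families 6 and 2 fell. Family 6, of 5 tags, took 0.516%, 0.515% and 0.468% of listed reads under stress, against 4.29%, 4.32% and 3.50% in normal libraries, with the sum at -3.07 ± 0.12 on the log2 scale when unlisted tags count as 0 (edgeR, BH-adjusted p = 1.51e-06). Under stress only its 16-base tag remained on the list, and its tags of 17, 18, 19 and 20 bases were listed in normal libraries alone. With these at the smallest listed share the family would average 1.42% under stress, against 4.04% in normal libraries, a difference of -1.51. The 16-base tag alone fell by 2.45 ± 0.22 on the log2 scale (edgeR, BH-adjusted p = 0.000128). Family 2, of 16 tags, took 4.13%, 5.64% and 5.73% under stress and 11.9%, 15.7% and 18.7% in normal libraries, with the sum at -1.66 ± 0.31 (edgeR, BH-adjusted p = 0.00169). With its unlisted tags at the smallest listed share the stress mean would be 7.98%, against the 15.4% listed in normal libraries. Families 2, 4, 6 and 8 passed without each library in turn. Family 10, of 5 tags, averaged 0.408% ± 0.0920 under stress and 1.23% ± 0.204 in normal libraries (SD, n = 3 each), and its sum was called lower at -1.63 ± 0.24 (edgeR, BH-adjusted p = 0.000508). Since 4 of its 5 tags were listed in no stress library, its stress share could be as high as 1.32%, so that no fall of the family is shown. Its 17-base tag took 0.331%, 0.382% and 0.510% under stress and 0.502%, 0.533% and 0.472% in normal libraries, which overlap, at -0.68 ± 0.15 (edgeR, BH-adjusted p = 0.00988, and 0.0989 with the replicate block). The lower call of the small family 13, at -1.34 ± 0.41, held with 1 of the 6 libraries left out, normal replicate 3, and with no other (edgeR, BH-adjusted p = 0.0198, and 0.0648 to 0.162 in the other 5 fits).

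The most abundant family did not pass. Family 1, of 23 tags, held 54.0%, 44.6% and 42.9% of the listed reads under stress and 50.2%, 47.9% and 51.1% in normal libraries, and its groups overlapped at -0.15 ± 0.15 (edgeR, BH-adjusted p = 0.367). Family 3, of 22 tags, was at -0.32 ± 0.18, and family 5, of 10 tags, at 0.41 ± 0.23 (edgeR, BH-adjusted p = 0.161 for each). Family 5 took 6.71%, 7.96% and 9.01% under stress and 5.08%, 5.75% and 6.11% in normal libraries, without overlap. It passed as higher without stress replicate 1, stress replicate 2 or normal replicate 3, and with DESeq2's size factors (edgeR, BH-adjusted p = 0.0124, 0.00786, 0.00477 and 0.0164). The replicate block also gave a higher call (edgeR, BH-adjusted p = 0.000924). With unlisted tags at the smallest listed count family 5 was at -0.088, although its shares with that fill averaged 8.10% under stress and 5.74% in normal libraries. Families 7 and 9, with 5 and 3 tags, were at -0.23 ± 0.17 and 0.55 ± 0.38 and did not pass either (edgeR, BH-adjusted p = 0.260 and 0.231). With unlisted tags at the smallest listed count families 1, 3 and 7 were called lower, at -0.64, -0.70 and -0.68 (edgeR, BH-adjusted p = 0.0207, 3.79e-06 and 1.32e-12). Their shares with that fill averaged 48.0%, 10.8% and 2.02% under stress and 50.8%, 11.7% and 2.16% in normal libraries. Since the higher fill under stress shifted the scaling of that fit, these calls show no fall of the families.

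Within families the forms of different length did not move together. The sets of forms described next were chosen after their values were seen, so they carry no test of their own. In family 4 the 11 tags share 1 end and have 11 different starts, so a shorter tag begins further inside. Its 6 tags of 16 to 21 bases took 9.89%, 11.1% and 10.5% of listed reads under stress, against 1.67%, 1.61% and 1.26% in normal libraries. Its 5 tags of 22 to 26 bases took 2.73%, 4.36% and 5.32% under stress, against 3.23%, 2.81% and 3.22%, and overlapped. The mean length of a family 4 read was therefore 19.6, 20.2 and 20.4 bases under stress and 22.4, 22.1 and 22.6 bases in normal culture.

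Single tags of family 4 showed the same split. The 20-base tag took 1.61%, 2.19% and 2.29% of listed reads under stress and 0.179%, 0.198% and 0.207% in normal libraries, and it rose by 3.00 ± 0.13 (edgeR, BH-adjusted p = 3.95e-05). The tags of 16, 19, 21 and 17 bases rose by 2.26 ± 0.14, 2.47 ± 0.14, 1.69 ± 0.16 and 2.08 ± 0.29 (edgeR, BH-adjusted p from 3.95e-05 to 0.00108). The 18-base tag was listed in 2 of 3 normal libraries and did not pass, at 3.33 ± 1.81 (edgeR, BH-adjusted p = 0.185). Among the longer forms, the 25-base tag, the most abundant of the family in normal libraries, took 0.947%, 1.46% and 1.54% under stress and 1.91%, 1.36% and 1.51% in normal libraries, which overlap. It was at -0.66 ± 0.17 (edgeR, BH-adjusted p = 0.0193, 0.0523 without stress replicate 1 and 0.127 with the replicate block). The tags of 23 and 24 bases were at 0.35 ± 0.21 and -0.24 ± 0.21 (edgeR, BH-adjusted p = 0.209 and 0.393). The 26-base tag was an exception to the split by length, being listed in stress libraries alone with 2374, 656 and 698 reads, a share at least 4.83-fold higher.

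**Figure D2:**
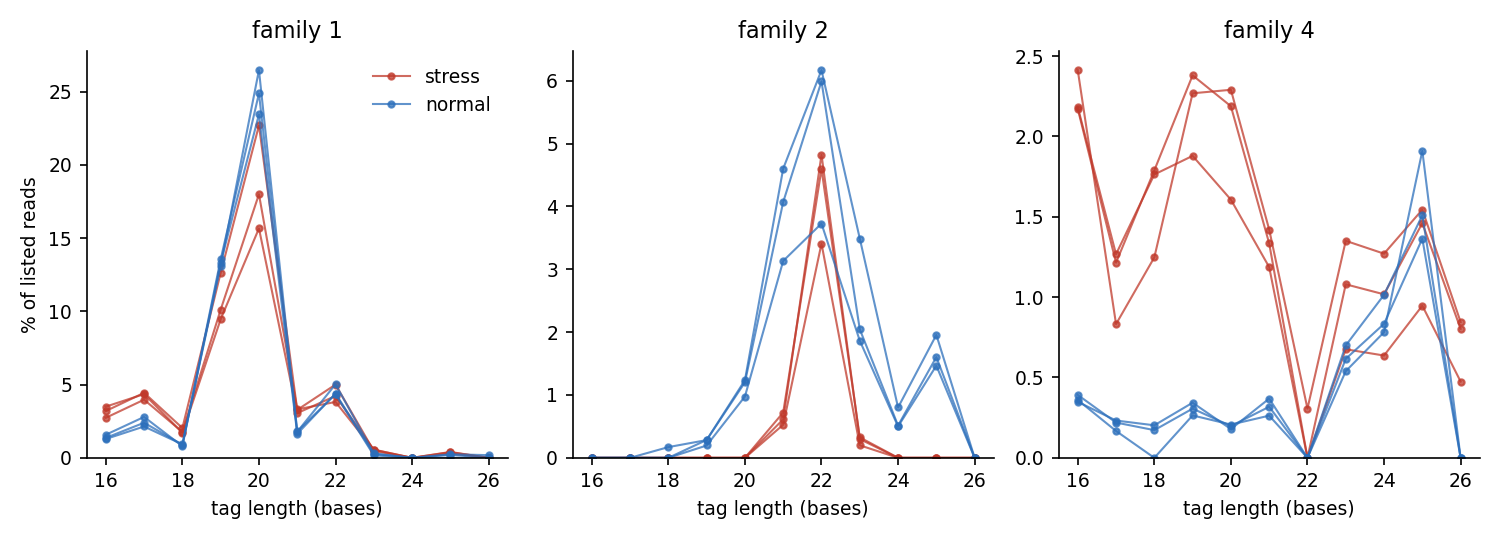
Percent of a library's listed reads in tags of each length from 16 to 26 bases, for families 1, 2 and 4, with 1 line per library, stress and normal in different colours. Tags of 16 to 21 bases in family 4 stood higher in every stress library, and in family 2 the stress lines peak at 22 bases and are low elsewhere.

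Family 1 has a similar architecture, with 11 starts and 2 ends for its 23 tags. Unlike in family 4, some of its tags share both start and end and differ in sequence between them. Its 5 tags of 16 to 18 bases at the common end took 9.20%, 7.91% and 8.92% of listed reads under stress, against 4.34%, 4.66% and 5.16% in normal libraries. Its 7 tags of 19 and 20 bases at that end took 34.8%, 27.5% and 24.5% under stress, against 39.6%, 36.8% and 38.4%. The stress libraries thus lay above all normal libraries for the shorter forms and below all of them for the commonest lengths. Forms of 21 or more bases overlapped, with 8.28%, 7.14% and 7.42% under stress and 6.15%, 6.32% and 7.32% in normal culture.

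The commonest tag of all, 20 bases long and of family 1, took 20.6%, 15.6% and 13.2% under stress and 25.2%, 22.1% and 22.3% in normal libraries. Its change of -0.82 ± 0.30 did not pass (edgeR, BH-adjusted p = 0.0675, and 0.00157 without stress replicate 1). The second, of 19 bases, was at -0.65 ± 0.26 (edgeR, BH-adjusted p = 0.0787, and 0.000966 without stress replicate 1). The commonest 16-base tag of family 1 rose by 0.63 ± 0.18, a call lost without stress replicate 1 or 3 or normal replicate 1 or 2 and with the replicate block (edgeR, BH-adjusted p = 0.0279, 0.0669 to 0.142 without those libraries, and 0.127 with the block). It and the commonest 21-base tag of family 2 were the 2 of the 10 most abundant tags that passed. A group of 4 tags that end 1 base further on took 1.72%, 2.06% and 2.04% under stress, against 0.168%, 0.182% and 0.202% in normal libraries, with unlisted tags at 0. The 21-base tag of that group rose by 1.81 ± 0.14 (edgeR, BH-adjusted p = 7.14e-05). The 20-base tag of that group was listed in stress libraries alone, a share at least 3.83-fold higher. It entered the test through the stress libraries alone, so its call adds nothing to the listing.

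Family 2 differs in that all 16 tags share 1 start and have 8 ends, so some of its tags have the same length and differ in sequence. Its commonest tag, of 22 bases, took 3.41%, 4.32% and 4.49% under stress and 3.51%, 5.61% and 5.21% in normal libraries, and its change of -0.61 ± 0.22 did not pass (edgeR, BH-adjusted p = 0.0598, and 0.00349 without normal replicate 1). The other 15 tags together took 0.726%, 1.32% and 1.24% under stress, against 8.35%, 10.1% and 13.5% in normal libraries. Of the listed reads of the family, the commonest tag thus made up 82.4%, 76.6% and 78.3% under stress and 29.6%, 35.7% and 27.8% in normal culture, and unlisted tags can only lower these shares. The commonest tags of 21 and 23 bases, 1 base shorter and 1 base longer, fell by 2.96 ± 0.18 and 3.36 ± 0.22 on the log2 scale (edgeR, BH-adjusted p = 3.95e-05 and 4.27e-05). In all 12 of the 16 tags were listed in normal libraries alone, among them a 25-base and a 20-base tag that were at least 4.45-fold and 4.21-fold lower under stress as shares of listed reads.

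Families listed in stress libraries alone were mostly small. Family 11, of 4 tags that share 1 end, had 5843, 1073 and 1034 reads, a share at least 2.13-fold higher under stress with each of its tags at the smallest listed share in normal libraries. Family 14, of 4 tags that share 1 end, had 5606, 869 and 810 reads, at least 1.80-fold higher by the same bound. Family 16, of 3 tags that share 1 start, had 2457, 790 and 840 reads, at least 1.88-fold higher. Such families entered the test through the stress libraries alone, so their calls add nothing to the listing. The bounds of the other 9 called, families 18, 19, 21, 24, 26, 28, 29, 30 and 32, lay between 1.20 and 2.62. Among families listed in normal libraries alone, family 23, a single 17-base tag with 413, 1970 and 2149 reads, was at least 1.70-fold lower under stress by group means. Family 27, a single 26-base tag, was at least 1.51-fold lower by the same measure. In normal replicate 1 they stood at 0.159% and 0.198%, below the smallest listed share of every stress library, 0.199% to 0.252%, so no fall is shown against that library. Family 33 was also called lower, but its bound of 0.84 shows no fold.

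A group of tags listed in stress libraries alone carried a motif of tRNA. The 7 bases TAGCTCA belong to the conserved D arm of many tRNAs and were searched for as written, on the strand of the tag. They occurred in 11 of the 165 tags, or 6.67%, all 11 of them listed in stress libraries alone, as were 45 of all 165 tags, or 27.3%. The 11 tags belong to families 16, 18, 19, 25, 30 and 44, so several are overlapping forms and not independent members. Those of family 25 were listed in stress replicate 3 alone and that of family 44 in stress replicate 1 alone. The 25-base tag of family 16 and the 26-base tag of family 19 were not listed in stress replicate 1. The 11 tags took 1.66%, 2.27% and 3.78% of listed reads under stress and were not listed in any normal library. Among the commonest reads of annotation entries, the motif was in 87 of 497 tRNA entries, or 17.5%, in 1 of 142 snoRNA entries and in 1 of 92 miRNA precursors. In C. sorokiniana it was in 7 of 166 tags, of which 3 were listed in stress libraries alone. The motif was chosen with earlier results of these data known, and a match does not identify the RNA or the organism of a tag.

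Shares by length and by rank were compared next, and neither difference passed. Tags of 20 to 24 bases, a range that includes the usual lengths of Dicer products, took 47.4%, 47.6% and 46.1% of listed reads under stress and 54.4%, 53.8% and 56.7% in normal libraries. The means were 47.1% ± 0.809 under stress and 55.0% ± 1.54 in normal libraries (SD, n = 3 each, exact permutation test, two-sided, p = 0.1, adjusted p = 0.3 over 6 comparisons). By single length, the groups were apart at 20 bases, where no stress library exceeded 27.3% and no normal library was below 28.0%, and overlapped at 21, 22, 23 and 24 bases. The 10 commonest tags of a library took 56.6%, 48.5% and 47.0% under stress and 58.9%, 59.0% and 58.7% in normal libraries, again without overlap (exact permutation test, two-sided, p = 0.1, adjusted p = 0.3). With 3 libraries against 3 no smaller p than 0.1 is possible.

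Reads matched to Arabidopsis entries were dominated by tRNA in both groups. Entries for tRNA took 88.4%, 92.4% and 89.8% of annotated counts under stress and 77.5%, 95.7% and 91.8% in normal culture (exact two-sided permutation p = 0.9). The shares of snoRNA and U RNA entries were 9.82%, 7.34% and 7.93% under stress and 18.1%, 3.70% and 6.29% in normal libraries (exact permutation test, p = 1). Entries for miRNA took 1.46%, 0.172% and 1.96% under stress and 3.75%, 0.492% and 1.77% in normal libraries (exact permutation test, p = 0.5). All 3 classes overlapped between the groups, as did rRNA, with 0.0353% to 0.357% under stress and 0.0678% to 0.575% in normal libraries (exact permutation test, p = 0.9).

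A pair of 13-base reads, counted at 12 entries of which 11 are tRNAs, accounted for much of the difference in annotated counts between libraries. These 12 entries held 38.0%, 87.3% and 20.3% of annotated counts under stress and 5.35%, 26.3% and 14.6% in normal libraries. Stress replicate 2 stood apart from the other 5 libraries. The entry at chromosome 5, 3324702 to 3324774, had 2757, 23517 and 626 counts under stress and 56, 3060 and 762 in normal libraries. It was at 2.59 ± 2.08 and did not pass, and at -0.20 without stress replicate 2 (edgeR, BH-adjusted p = 0.310). The snoR71 entry at chromosome 5, 11982171 to 11982277, a snoRNA with one of these reads, had 1451, 17914 and 43 counts under stress and 0, 121 and 33 in normal libraries and did not pass either (edgeR, BH-adjusted p = 0.0764, and 2.75e-05 with library totals alone). Both reads lie within tags of families 18 and 31, which were listed in stress libraries alone.

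**Figure D3:**
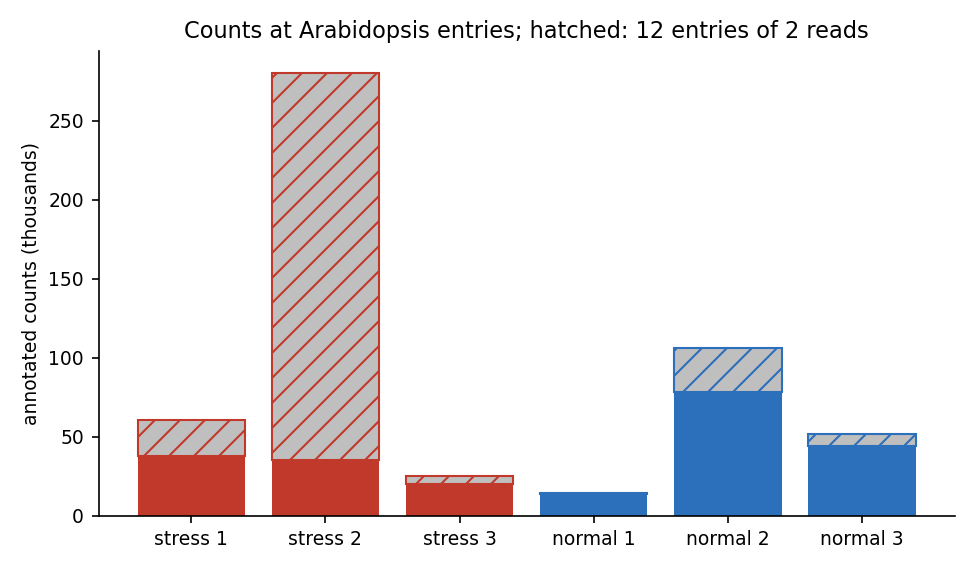
Annotated counts per library, stress libraries left of normal libraries, with the counts of the 12 entries of the pair of dominant 13-base reads hatched. Stress replicate 2 reached 280404 counts, of which 87.3% were in those 12 entries.

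Of 248 entries tested, 87 passed, or 35.1%, with 55 higher and 32 lower under stress (edgeR, BH). The median log2 fold change of all tested entries was -0.30. The filter of the test worked on raw library totals, so an entry needed more counts in stress replicate 2, with 280404, than in normal replicate 1, with 14601. With no filter 140 of 792 passed, 112 higher and 28 lower, with a median of 0.74. Since entries share reads, the 792 entries hold 289 distinct sets of counts. With identical sets entered once 37 of 114 passed, 23 higher and 14 lower. With the replicate number as a block 132 passed, 55 higher and 77 lower. The scaling between libraries mattered, as the normalization factors ranged from 0.225 in stress replicate 2 to 2.33 in normal replicate 1: DESeq2's size factors gave 60 higher and 17 lower, and library totals alone 18 higher and 17 lower. Without stress replicate 2, the library that stood apart, 106 passed, 74 higher and 32 lower, and without normal replicate 1, the library with the fewest annotated counts, 193 passed, 110 higher and 83 lower. The shares of the groups did not overlap for 65 entries, or 26.2%.

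**Figure D4:**
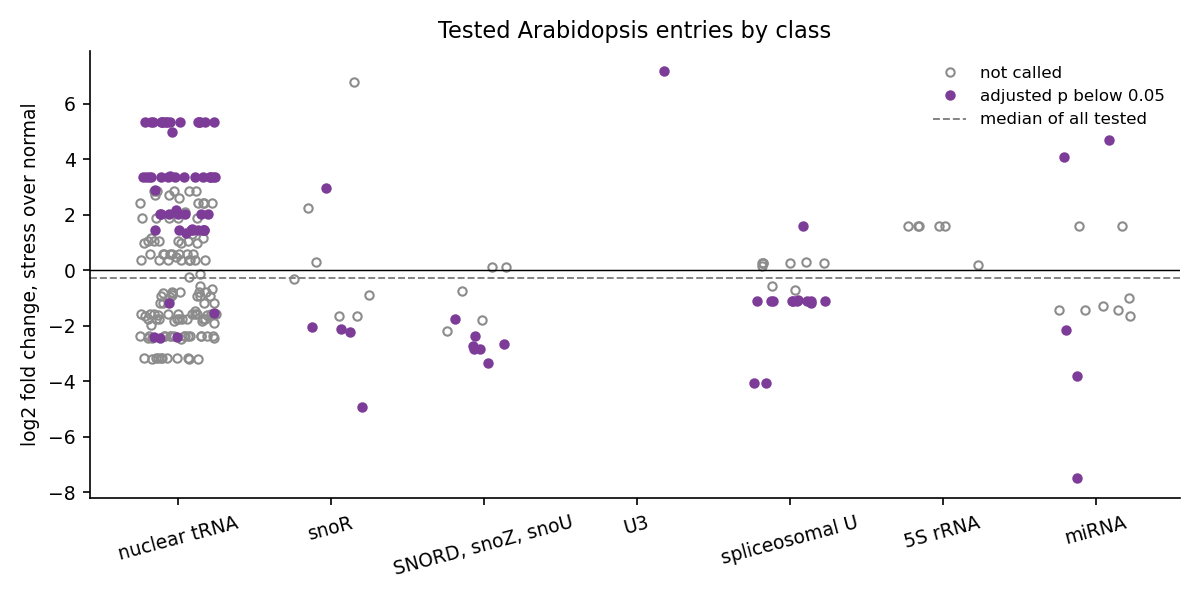
Log2 fold change, stress over normal, of each tested entry by RNA class, called entries filled, with the median of all tested entries, -0.30, as a dashed line. Called tRNA entries lie mostly above the line and called snoRNA and U RNA entries mostly below it.

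Entries for tRNA rose and those for snoRNAs and U RNAs fell in most of their calls, 50 higher and 5 lower among 181 tested tRNA entries, and 3 higher and 24 lower among 48 tested snoRNA and U RNA entries (edgeR, BH). Against these stand 22.2% called higher and 12.9% called lower among all 248 tested. Entered once where counts were identical, tRNA gave 16 higher and 2 lower of 68, and snoRNA and U RNA 3 higher and 9 lower of 33. With the replicate block tRNA gave 50 higher and 46 lower, and snoRNA and U RNA 3 higher and 28 lower. With library totals alone tRNA gave 16 higher and 15 lower, and snoRNA and U RNA 2 higher and 1 lower.

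Among tRNA entries the largest called change was shared by 15 entries with the same counts, among them chromosome 1, 25932077 to 25932149. They had 295, 186 and 189 counts under stress, against 0, 4 and 8 in normal libraries, and rose by 5.32 ± 0.70 (edgeR, BH-adjusted p = 0.00105). The entry at chromosome 4, 13006234 to 13006306, had 191, 74 and 163 counts under stress, against 0, 6 and 4, and rose by 4.98 ± 0.81 (edgeR, BH-adjusted p = 0.00157). Both held without each library in turn and with library totals alone. Both entered the test through the stress libraries alone, so their calls add little to the counts. Their commonest reads are 17 and 18 bases long and map to 30 and 21 loci, so the amino acid cannot be read from the entry. In the other direction, a pair of entries with the same counts, among them chromosome 2, 15470162 to 15470245, had 20, 12 and 6 counts under stress and 29, 42 and 66 in normal libraries and fell by 2.40 ± 0.50 on the log2 scale (edgeR, BH-adjusted p = 0.00640, and 0.220 with library totals alone). The most abundant tRNA entries outside the pair of dominant reads, a set of 6 with 411, 577 and 145 counts under stress and 418, 2573 and 1521 in normal libraries, were at -2.38 ± 0.90 and did not pass (edgeR, BH-adjusted p = 0.0647, and 0.0412 with the replicate block). The 1 chloroplast tRNA entry was at -0.83 ± 0.99 and did not pass (edgeR, BH-adjusted p = 0.486).

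U3, the snoRNA needed for cleavage of the ribosomal RNA precursor, had the largest called rise of the annotated entries. The entry at chromosome 4, 421983 to 422194, had 607, 361 and 294 counts under stress, against 0, 4 and 2 in normal libraries. It rose by 7.17 ± 0.59 and held without each library in turn, with library totals alone and with the replicate block (edgeR, BH-adjusted p = 0.000613). It was the 1 tested of 9 U3 entries, and its commonest read of 16 bases maps to 16 loci. This entry came into the test through the stress libraries alone, so its call adds little to the counts. The snoR109 entry had 373, 274 and 172 counts under stress and 11, 25 and 39 in normal libraries and rose by 2.95 ± 0.38 (edgeR, BH-adjusted p = 0.00105, and 0.140 with library totals alone).

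The SNORD, snoZ and snoU entries, named after box C/D snoRNAs that guide methylation of ribosomal RNA, gave 0 higher and 7 lower of 12 tested, with a median of -2.29. Among all entries tested 22.2% were higher and 12.9% lower, with a median of -0.30. The snoU36a entries had 20, 10 and 14 counts under stress, against 48, 95 and 85 in normal libraries, and fell by 2.85 ± 0.42 on the log2 scale (edgeR, BH-adjusted p = 0.00157). SNORD24 at chromosome 4 had 17, 13 and 4 counts under stress and 56, 46 and 42 in normal libraries and fell by 2.75 ± 0.58 (edgeR, BH-adjusted p = 0.00659). No stress library reached a normal one in either. A snoZ159 entry, at chromosome 1, 8756367 to 8756453, had 51, 37 and 31 counts under stress and 117, 165 and 145 in normal libraries, a change of -2.38 ± 0.29 (edgeR, BH-adjusted p = 0.00105). Its 14-base commonest read lies within 9 listed tags of family 3. The other snoZ159 entry, at chromosome 1, 8756227 to 8756304, was the only named entry whose commonest read, of 22 bases, maps to 1 locus. It had 9, 13 and 0 counts under stress and 33, 68 and 56 in normal libraries and fell by 3.34 ± 0.90 (edgeR, BH-adjusted p = 0.0182, and 0.0717 to 0.109 without stress replicate 1 or normal replicate 2 or 3). This entry came into the test through the normal libraries alone. With library totals alone 1 of the 12 was called lower, with DESeq2's size factors 7 and with the replicate block 9.

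Calls among spliceosomal U RNAs and snoR-named entries depended more on the setting. Of 23 tested entries of spliceosomal U RNAs 1 was higher and 13 lower, with a median of -1.11, against 22.2% higher, 12.9% lower and a median of -0.30 among all entries tested. The 8 U2 entries with the same counts had 141, 92 and 68 counts under stress and 122, 179 and 142 in normal libraries, groups that overlap, at -1.12 ± 0.26 (edgeR, BH-adjusted p = 0.00857). U2, which pairs with the branch point of introns, made up 11 of the 13 lower entries, and none of 9 tested U6 entries passed. The lower calls of the list came to 1 without normal replicate 2, to 2 with DESeq2's size factors, to 1 with identical counts once and to 0 with library totals alone. Of 12 tested snoR entries 1 was higher and 4 lower, among them snoR116 with 3, 0 and 0 counts under stress and 17, 27 and 25 in normal libraries, a change of -4.93 ± 0.94 (edgeR, BH-adjusted p = 0.00396, and 0.0685 with library totals alone). The snoR116 entry came into the test through the normal libraries alone. Of 6 rRNA entries tested 0 passed with edgeR or DESeq2, and 5 had an unadjusted p below 0.05 in each, against 0 with the block of replicate numbers and 0 when scaled by totals alone. With identical counts entered once 1 of 2 passed. The 5 5S rRNA entries with the same counts had 20, 13 and 8 counts under stress and 3, 4 and 2 in normal libraries, at 1.58 ± 0.57 (edgeR, BH-adjusted p = 0.0627, and 0.0486 without stress replicate 3 and 0.0301 without normal replicate 1).

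**Figure D5:**
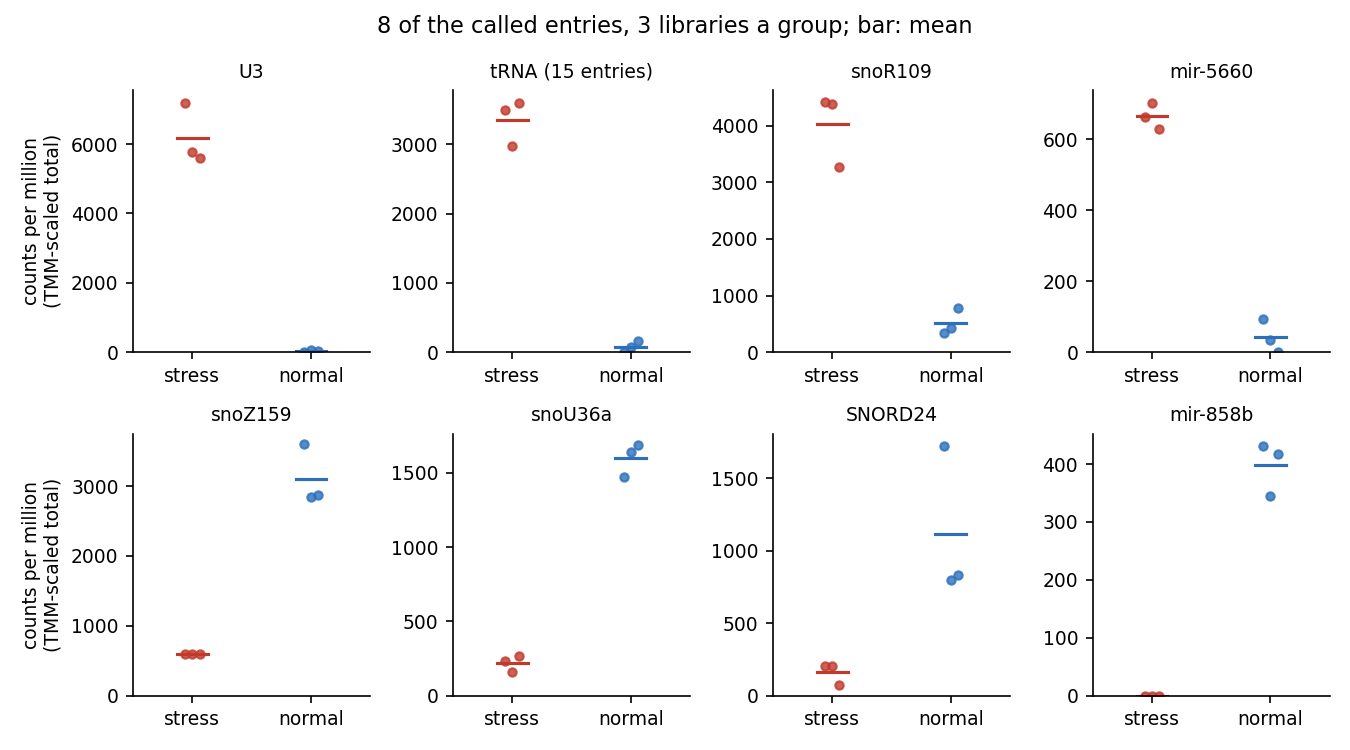
TMM-scaled relative abundance (CPM) in each library for 8 called entries, stress left of normal, with a bar at the mean of 3 libraries. The U3 entry, a set of 15 tRNA entries, snoR109 and mir-5660 were higher in the stress libraries, and snoZ159, snoU36a, SNORD24 and mir-858b were lower.

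Entries for miRNAs were few and rest on very short reads. Of 119 mature and precursor entries 13 could be tested, and the commonest read of none of the 119 had 20 or more bases, the longest being 19. Median read lengths were 12 bases for mature and 13 for precursor entries, mapping to 23 and 25 loci, so a match to an Arabidopsis miRNA does not show that the alga has it. The precursor mir-5660 had 56, 44 and 33 counts under stress and 3, 2 and 0 in normal libraries, and rose by 4.06 ± 0.89 (edgeR, BH-adjusted p = 0.00782, and 0.0995 with library totals alone). Its 15-base read also makes up the mature entry miR-5660, at 4.68 ± 1.11 (edgeR, BH-adjusted p = 0.00997).

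The precursor mir-858b had 0 counts in each stress library and 14, 20 and 21 in normal libraries, at least 8.49-fold lower against 3 counts per library on the TMM scale. It entered the test through the normal libraries alone, so its lower call adds nothing to the counts. In Arabidopsis miR858 targets MYB transcription factors of flavonoid synthesis. The precursor mir-835 had 5, 0 and 0 counts under stress and 14, 20 and 14 in normal libraries, at -3.80 ± 1.00 (edgeR, BH-adjusted p = 0.0168, and 0.0571 without stress replicate 2 and 0.0717 without normal replicate 2). Its entry to the test also came through the normal libraries alone. The precursor mir-5652 had 139, 79 and 77 counts under stress and 188, 218 and 517 in normal libraries, at -2.18 ± 0.41 (edgeR, BH-adjusted p = 0.00349). Its commonest read of 10 bases lies within 5 tags of family 1, so it need not be a miRNA read.

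Of the lists of conserved plant miRNAs none had an entry that passed the filter of the test: 23 development, 5 phosphate, 4 small RNA machinery, 2 copper, 2 sulfate and 1 miR169 entries. Without the entries of the dominant reads 2 of 2 tested development and 1 of 1 phosphate entries were called higher. Of small RNA machinery and copper entries 0 of 2 and 0 of 1 passed there. With no filter 4 development, 2 phosphate, 2 small RNA machinery and 1 copper entries were called higher and 0 lower (edgeR, BH). Against 22.2% higher and 12.9% lower among all entries tested, 2 of 7 tested of the miR5634 to miR5660 list were higher and 1 lower, with a median of -1.44, and of the miR8xx list 0 were higher and 2 lower of 5, with a median of -1.29. With no filter the miR5634 to miR5660 list gave 2 higher and 0 lower of 32, with a median of -1.05. The miR8xx list gave 2 higher and 5 lower of 32, with a median of -0.014. Values of entries that failed the filter, chosen after they were seen, were as follows. The mature entry miR-171a, which in Arabidopsis targets scarecrow-like transcription factors, had 36, 19 and 19 counts under stress and 0 in each normal library. The precursors mir-168a, whose product targets Argonaute 1 in Arabidopsis, and mir-827, tied there to phosphate supply, had 13, 8 and 13 and 12, 7 and 9 counts under stress and 0 in each normal library. Their whole lists overlapped between the groups as shares of annotated counts. Development entries took 0.0189% to 0.320% under stress and 0.00967% to 0.205% in normal libraries. Phosphate entries took 0.0164% to 0.125% and 0.0226% to 0.192%, and small RNA machinery entries 0.0121% to 0.264% and 0.00753% to 0.0274%.

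Set against C. sorokiniana, the responses of 7 of 38 tags listed in both species, or 18.4%, and of 66 of 262 shared entries, or 25.2%, differed between the species (edgeR interaction, BH). The set of tRNA entries described above at chromosome 1, 25932077 to 25932149, shares its counts with chromosome 5, 8946824 to 8946896. In C. sorokiniana that entry had 29, 16 and 28 counts under stress and 47, 14 and 3 in normal libraries. The change in C. zofingiensis exceeded that in C. sorokiniana by 6.32 ± 0.96 on the log2 scale (edgeR interaction, BH-adjusted p = 2.13e-05). The 16-base tag of family 8 rose in both species, by 1.23 ± 0.12 in C. zofingiensis and 2.11 in C. sorokiniana, a difference of -1.11 ± 0.30 (edgeR interaction, BH-adjusted p = 0.0437). With DESeq2's size factors 15 shared entries differed, all of them with the higher response in C. zofingiensis.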

How the data were processed

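Small RNA libraries were made by the authors from TRIzol total RNA with the NEBNext Multiplex Small RNA kit, per the labels' protocols. Per the submitters' processing notes DESeq was used, without a version, with the Arabidopsis build TAIR9. The sources used here name neither the aligner nor the trimming. The deposited tag table holds counts of reads per tag, per the file headers, for the 100 commonest tags of each library. The deposited annotation sheets hold counts of reads per Arabidopsis entry, per the file headers, and a signal, the deposited quotient of those counts and the number of mapping loci, used in an alternative only. Entries missing from a sheet were taken as 0.

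Counts of 3 stress and 3 normal libraries were compared with edgeR 4.0.16 (R 4.3.3; quasi-likelihood, robust, TMM, filterByExpr, two-sided, Benjamini-Hochberg, adjusted p under 0.05), tested on simulated data, with DESeq2 1.42.0 as an alternative. Families join tags that share 12 bases. Single shares were compared by exact permutation (scipy 1.17.1, numpy 2.4.6, pandas 2.3.3, Python 3.11.15); figures used matplotlib 3.10.9. A bound divides group means, with every unlisted tag at the smallest listed share and entries with 0 at 3 counts per library. Such bounds cover counting error only, as there are no molecular identifiers. Species differences were interactions over all 12 libraries. Replicate pairs of 1 group differed by a chi-square of 14.8 to 315 per degree of freedom, so no library was counted as a copy.

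Deviations of same-numbered stress and normal libraries correlated at 0.742, 0.729 and 0.102 over entries. Stress replicate 3 correlated more with normal replicate 1, at 0.237, so its number does not stand out as a pair. Fits are reported without that block, and the blocked value stands beside only some of the calls and counts that it changed. With the block all 87 entry calls were kept among 132, while 21 of 65 tag calls and 12 of 22 family calls were kept. A tag or family call given without a blocked value may thus be lost with the block. Named features were the 10 most abundant, up to 10 called in each direction without overlap, and up to 4 members of each list; others were chosen after their values were seen. The members and lists were chosen with earlier results of these data known. Deposited fold changes and p-values were not used.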

Additional observations from a re-analysis of the deposited data

Results flagged for a closer look

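In 10 features the responses of the 2 species differed by a direct test (edgeR's interaction test, Benjamini-Hochberg). Differences are log2 fold changes in C. zofingiensis minus those in C. sorokiniana, and for features with an unlisted or empty group they shift with the prior count of the fit and give no size. A 21-base tag of family 3 was not listed in C. zofingiensis stress libraries, with 1076, 1648 and 1261 reads in normal ones, and had 2178, 1215 and 1031 reads under stress and 6450, 2113 and 607 in normal culture in C. sorokiniana (fitted difference -12.38, adjusted p = 7.24e-07). A 22-base tag of family 3 was likewise listed in normal libraries alone in C. zofingiensis and in both groups of C. sorokiniana (fitted difference -11.77, adjusted p = 0.000146). Family 3 has other tags of both lengths that were listed under stress in C. zofingiensis, among them a 21-base tag with 1811, 387 and 396 reads and a 22-base tag with 1068, 277 and 275. The 17-base tag of family 8 was listed in stress libraries alone in C. zofingiensis (fitted difference 9.76 ± 2.52, adjusted p = 0.0437, and 0.342 with the replicate block). The 16-base tag of family 8 and the commonest 16-base tag of family 1 rose in both species and less in C. zofingiensis, by -1.11 ± 0.30 and -0.96 ± 0.28 (adjusted p = 0.0437 each, and 0.0477 and 0.101 with the block).

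The set of tRNA entries with chromosome 5, 8946824 to 8946896, differed by 6.32 ± 0.96. The tRNA entry at chromosome 2, 18703678 to 18703750, differed by 2.82 ± 0.70, and the one at chromosome 1, 604402 to 604474, by 2.82 ± 0.71 (adjusted p = 0.00520 each). The entry at chromosome 2 had 223, 76 and 166 counts under stress and 6, 12 and 14 in normal libraries of C. zofingiensis, and 18, 23 and 19 and 8, 12 and 0 in those of C. sorokiniana. The 5S rRNA entry at chromosome 5, 12024975 to 12025093, and the snoR24 entry at chromosome 4, 14468962 to 14469058, had 0 counts in every normal library of C. sorokiniana and did not pass in C. zofingiensis (fitted differences -8.26 ± 1.95 and -7.79 ± 1.84, adjusted p = 0.00520 each). With DESeq2's size factors 15 of 262 shared entries differed between the species, 0 of them with the lower response in C. zofingiensis, in place of 66 with 33 lower.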

How the results depend on the processing

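The fits of tags and families moved with the replicate block and with the treatment of unlisted tags. Of the 22 family calls 12 were kept with the block and 10 with unlisted tags at the smallest listed count. Same-numbered libraries correlated at 0.201, -0.138 and 0.177 over tags and 0.112, 0.0364 and 0.221 over families, so that the numbers were not taken as pairs there. With the replicate block 21 tags and 14 families passed in place of 65 and 22, and 27 tags did when the fit was limited to the 56 listed in every library. In alternatives chosen after seeing the data, 15 families passed with unlisted tags at the smallest listed count and 8 over tags listed in all 6 libraries. In the first, families 13, 17, 18, 19, 23, 24, 26, 28, 29, 30, 32 and 33 lost their calls, families 1, 3, 7, 15 and 20 gained one, and family 5 was at -0.088. The fill was higher in stress libraries and shifted the scaling of that fit, so the calls gained or lost there depend on the fill. Library totals alone moved the median log2 change of tags to 0.44 in place of 0.05. Of entries, 35 passed with library totals alone (median -0.04 in place of -0.30), 140 with no filter, 132 with the block, 37 with identical counts once, 50 with identical counts once and the block, 138 without the 12 entries of the dominant reads (median 0.61), and 88 to 193 without 1 library. Tags that differed between species numbered 4 with the block and 2 to 11 without 1 library. For entries these were 15 with DESeq2's size factors (an edgeR fit) and 53 to 131.

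No class share passed, and its sign was unstable. The difference for tRNA was -0.557 points with identical counts once and -3.57 to 5.53 without 1 library. For snoRNA these were 2.46 and -3.85 to 3.37. For miRNA it was 0.0578 as a share of entries detected and -1.56 to 0.0658. For rRNA it was 0.00353 by mapping loci, 0.133 without the dominant reads and -0.120 to 0.134.

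Among features that did not pass, leaving out 1 library moved family 1 between -0.22 and 0.34, family 3 between -0.30 and 0.0073, family 7 between -0.30 and 0.089, and the 4 commonest tRNA entries between -0.20 and 4.26, -0.42 and 3.95, -0.45 and 3.95, and -0.52 and 4.38. The lowest of each tRNA came without stress replicate 2. The chloroplast tRNA was at 0.021 with library totals, snoR24 at chromosome 4, 14469190 to 14469286, at -0.29 without the dominant reads and -0.20 to 0.96 without 1 library, and 5S rRNA at chromosome 5, 12024975 to 12025093, at -0.33 and -0.24 to 0.78. The causes were not tested. Of named called features, 4 of 23 entry sets, 8 of 18 families and 9 of 22 tags passed in every alternative that tested them, and 15, 17 and 21 did so without each library in turn. Depth beyond the 100 listed tags was not analysed here, and 13 of 119 miRNA entries passed the filter of the test.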
